A study of Mus musculus with 6 samples.

Results

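The nuclear-encoded genes of oxidative phosphorylation were described in mouse eggs arrested at metaphase of the second meiotic division (MII eggs). Members were all rows of the count table whose symbol begins with Nduf, Uqcr, Cox4, Cox5, Cox6, Cox7, Cox8 or Atp5, together with Sdha, Sdhb, Sdhc, Sdhd, Cyc1 and Cycs. This rule uses names and no measured value, and it gave 94 of the 24062 genes in the table. They comprised 36 genes of complex I (7 core and 29 accessory subunits), 4 of complex II, 9 of complex III, 19 of complex IV, 15 of complex V, the cytochrome c gene Cycs, and 10 genes of assembly factors and related proteins. Ndufa4 was counted with complex IV, of which its protein is now regarded as a subunit.

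Oxidative phosphorylation takes place in the mitochondrial inner membrane. Complexes I and II pass electrons from NADH and succinate to ubiquinone, complex III passes them on to cytochrome c and complex IV to oxygen, and the proton gradient that complexes I, III and IV build up drives ATP synthesis by complex V. Most subunits are encoded in the nucleus, and the remaining ones by mitochondrial DNA. The mouse egg depends on pyruvate oxidation in its mitochondria for ATP, and its mitochondria are inherited by the embryo.

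The study compared eggs that carried different forms of the histone variant H3.3 fused to a fluorescent protein. The K27R group expressed H3.3K27R-mCherry, in which lysine is replaced by arginine, and the R26K group expressed H3.3R26K-eCFP, in which arginine is replaced by lysine. The H3.3 group expressed the unmutated H3.3-eGFP. All eggs came from super-ovulated 8-week-old females of the line HISRainbow;Figla-iCre, in which the Cre recombinase is driven in oocytes by Figla, and eggs were assigned to a group by colour under a confocal microscope. Each group had 2 libraries, called biological replicates in the labels, but no label ties them to different females, so what the p-values measure is how far these libraries spread. Pairs of values below are replicate 1 and replicate 2 of a group. Each histone had its own fluorescent tag, so that the substitution and the tag cannot be told apart. The number of eggs in a library is not given in the sources used here.

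Total counts were 11557291 and 10803477 in K27R eggs, 39603440 and 33786225 in R26K eggs, and 12748821 and 11452906 in H3.3 eggs. A gene with at least 1 count was found 10715 and 7405 times in K27R eggs, 12135 and 12112 times in R26K eggs, and 7590 and 7392 times in H3.3 eggs. K27R replicate 2 and both H3.3 libraries thus held fewer genes than K27R replicate 1, at similar totals. Both R26K libraries had the largest totals and held the most genes. A difference of R26K eggs from the other groups cannot be told apart from these traits of their libraries. Of 18 egg markers, 16 or 17 were counted in every library. Of 22 cumulus and granulosa markers, 16 and 5 were counted in K27R eggs, 18 and 15 in R26K eggs, and 6 and 13 in H3.3 eggs. The summed level of 16 markers of other cells was 26.5 to 174 CPM. H3f3b, a gene of H3.3, had 1910 to 4477 CPM (counts scaled to the library total) over the 6 libraries, and the table does not tell the transgene from the resident gene.

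As a group the members took a small and similar share of the counts. They made up 0.405% and 0.4% of all counts in K27R eggs, 0.372% and 0.368% in R26K eggs, and 0.382% and 0.508% in H3.3 eggs. Exact 95% binomial intervals, which cover counting error only, ran from 0.4018% to 0.4092% in K27R replicate 1 and from 0.5035% to 0.5117% in H3.3 replicate 2, which stood highest. A few genes carried much of this share: the 5 highest members of a library held 46.1% to 57.1% of its member counts. In bulk RNA, fewer cells of a type and less RNA per cell cannot be told apart.

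Levels of different genes were compared per transcript length, as TPM (counts divided by transcript length and scaled to the same sum in every library). The highest mean over the 6 libraries belonged to Ndufa4, at 1028.8 ± 651 TPM (SD, n = 6). Cox6b2, a cytochrome c oxidase subunit known as the testis isoform, followed at 1002.7 ± 350 TPM (SD, n = 6). The next were the complex I assembly factor Ndufaf2 with 697 ± 251 TPM, the complex IV subunit Cox8a with 597 ± 261 TPM, the complex III core protein Uqcrc2 with 580 ± 159 TPM and Atp5b, the catalytic beta subunit of ATP synthase, with 402 ± 270 TPM. Cox6c, Ndufa10, Cox7a2 and Cox6a1 had 289 ± 123, 269 ± 89.6, 268 ± 118 and 247 ± 172 TPM. Neighbours in this order differed by less than the larger of their 2 SDs over the libraries. These 10 genes held 63.5% of the summed TPM of the members, and 6 of them belong to complex IV.

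**Figure D1:**
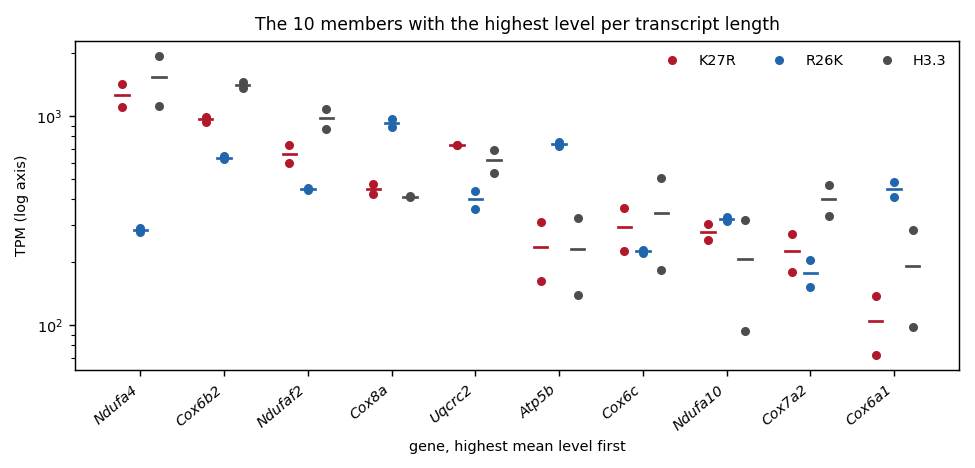
Levels of the 10 members with the highest mean TPM (log axis), in each library, with K27R left, R26K in the middle and H3.3 right for each gene; horizontal bars mark the mean of the 2 libraries. Ndufa4 and Cox6b2 lay lower in both R26K libraries than in the other 4, and Cox8a and Atp5b lay higher.

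The complexes differed in how evenly their members were counted. In complex I the 7 subunits of the conserved catalytic core had a median of 6.02 TPM, against 28.1 TPM for the 29 accessory subunits. The highest complex I genes by CPM were Ndufa10, Ndufb8 and Ndufb6, with means of 264, 58 and 54.2 CPM. In complex II, Sdha, the subunit that binds the flavin, had a mean of 134.8 TPM, and the membrane anchors Sdhc and Sdhd had 35.4 and 40.5 TPM. Uqcrc2 held 78.1% to 93% of the complex III counts, while its core partner Uqcrc1 was counted in R26K replicate 1 alone, at 6.76 CPM. The next genes of complex III by CPM were Uqcr10 and Uqcrh, with 19.5 and 19.0 CPM, or 93.6 and 73.8 TPM. Uqcrq stood close behind with 18.95 CPM. Its 26.2 TPM depended on the transcript chosen. With the shortest equally supported transcript Uqcrq had 91.3 TPM and Uqcr10 86.9 TPM. In complex V, Atp5b stood above the alpha subunit gene Atp5a1 and the gamma subunit gene Atp5c1, which had 65.7 and 82.9 TPM. Among assembly factors, Ndufaf4 and Ndufaf7, both of complex I, had 222 and 42.1 TPM. Cycs, the gene of somatic cytochrome c, was low, with 0.137 to 3.27 TPM.

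**Figure D2:**
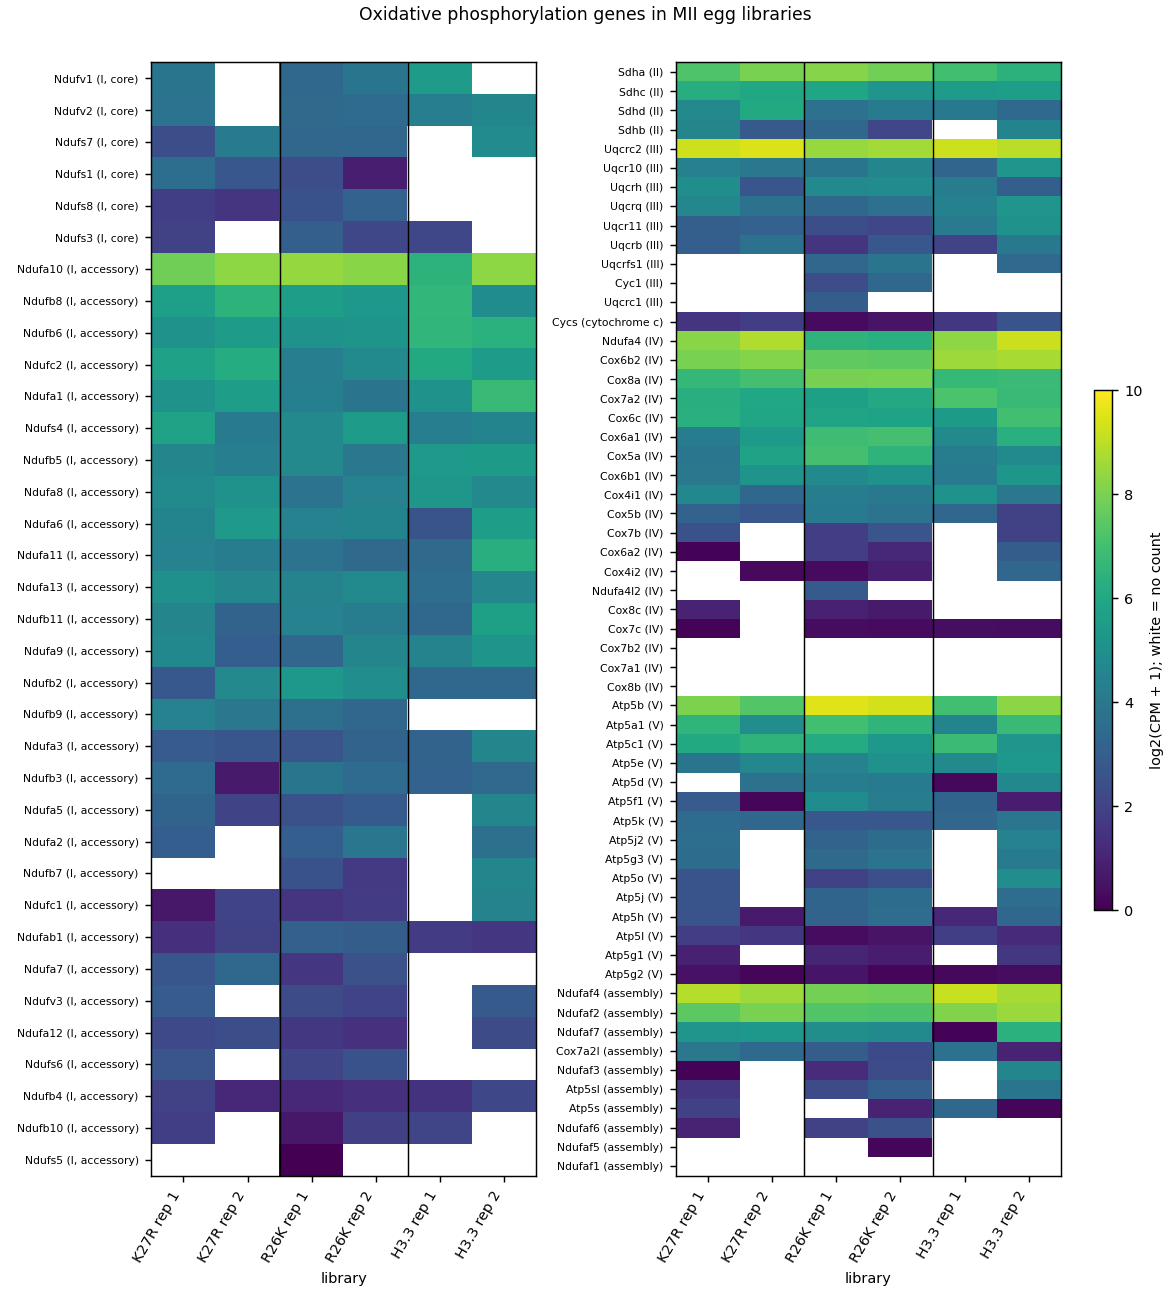
Level of 93 of the 94 members in the 6 libraries as log2(CPM + 1), grouped by complex and, within it, from the highest to the lowest mean, with K27R left, R26K in the middle and H3.3 right; white means no count. White fields gather in K27R replicate 2 and H3.3 replicate 1, and 51 of the 94 members were counted in all 6 libraries.

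Several subunits have paralogues used in different tissues, and for most of them 1 gene prevailed in the eggs. Cox6b2 held 84.6% to 96% of the Cox6b transcripts in every library, and Cox6b1, the somatic form, held the remainder. Cox6b2 had 995 and 941 TPM in K27R eggs, 621 and 643 TPM in R26K eggs, and 1366 and 1450 TPM in H3.3 eggs. Cox6b1 had 56.5 and 110 TPM in K27R eggs, 81.8 and 117 TPM in R26K eggs, and 56.6 and 126 TPM in H3.3 eggs. The level of Cox6b2 thus exceeded that of Cox6b1 in each library, by 17.6 and 8.56 times in K27R eggs, 7.6 and 5.49 times in R26K eggs, and 24.1 and 11.5 times in H3.3 eggs. Neither gene shares a 50-base stretch with another gene of the annotation, so a single-end 50-base read can be assigned to either of them.

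The promoters of these 2 genes are shown because the paralogues stood so far apart in level. Both lie on the minus strand of chromosome 7 (RefSeq, GRCm38.p6), at chr7:4753045-4753344 for Cox6b2 and chr7:30626065-30626364 for Cox6b1. The Cox6b2 gene spans 4751792 to 4753094 and the Cox6b1 gene 30616861 to 30626151 in GENCODE M21. Each window runs from 250 bases before to 50 bases after the transcript start, 5′ to 3′, and capitals mark a match to a searched motif.
Cox6b2: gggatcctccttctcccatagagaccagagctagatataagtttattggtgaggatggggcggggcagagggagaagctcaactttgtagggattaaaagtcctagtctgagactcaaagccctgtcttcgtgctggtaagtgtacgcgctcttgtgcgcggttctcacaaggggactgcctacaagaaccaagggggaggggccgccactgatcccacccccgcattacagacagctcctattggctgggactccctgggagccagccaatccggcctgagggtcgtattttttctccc
Cox6b1: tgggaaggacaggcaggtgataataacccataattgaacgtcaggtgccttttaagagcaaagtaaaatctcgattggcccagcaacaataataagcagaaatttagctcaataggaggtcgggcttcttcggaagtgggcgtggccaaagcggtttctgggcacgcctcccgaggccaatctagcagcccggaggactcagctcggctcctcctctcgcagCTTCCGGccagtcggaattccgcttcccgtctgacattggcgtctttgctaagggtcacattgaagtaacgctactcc
The motifs, searched on both strands, were the cores GCATGCGC of NRF1, CCGGAAG of ETS factors such as GABP, AAGATGGC of YY1, and TATAAA. NRF1, GABP and YY1 are known regulators of respiratory chain genes. The Cox6b1 window holds 1 ETS core and the Cox6b2 window none of the 4 motifs, which says only that these letters are not in it. Promoters were on hand for 77 of the 94 members. The NRF1 core was found in 16.9% of them, against 3.05% of all 27025 promoters and 6.52% of the 8083 promoters of genes tested here. The ETS core was found in 22.1% of the member promoters, 9.93% of all and 20.4% of tested genes' promoters, and the YY1 core in 14.3%, 3.19% and 5.46%. The TATA letters were found in 9.09% of the member promoters, 15.7% of all and 9.25% of tested genes' promoters. In no member promoter did an ETS match overlap a YY1 match, and of all 27025 promoters only 1 held such an overlap.

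Among the other families the ubiquitous form prevailed. Cox8a held at least 98.9% of the Cox8 transcripts in every library, Cox8b had no count, and Cox8c, known in human as a testis form, had 12 and 0 counts in K27R eggs, 32 and 22 in R26K eggs and 0 in both H3.3 libraries. Cox6a1 held at least 93.4% and the muscle form Cox6a2 at most 6.6%. Cox7a2 held at least 89.9%, the related Cox7a2l, a supercomplex factor, at most 10.1%, and the muscle form Cox7a1 had no count. Cox4i1 held 61.3% to 100%, and its lowest share was in H3.3 replicate 2, where Cox4i2, a lung form, had 103 counts. Ndufa4 prevailed over Ndufa4l2, which had 225 counts in R26K replicate 1 and none elsewhere. Cox7b had 58 and 0 counts in K27R eggs, 95 and 173 in R26K eggs and 0 and 35 in H3.3 eggs, and Cox7b2 had none in any library.

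**Figure D3:**
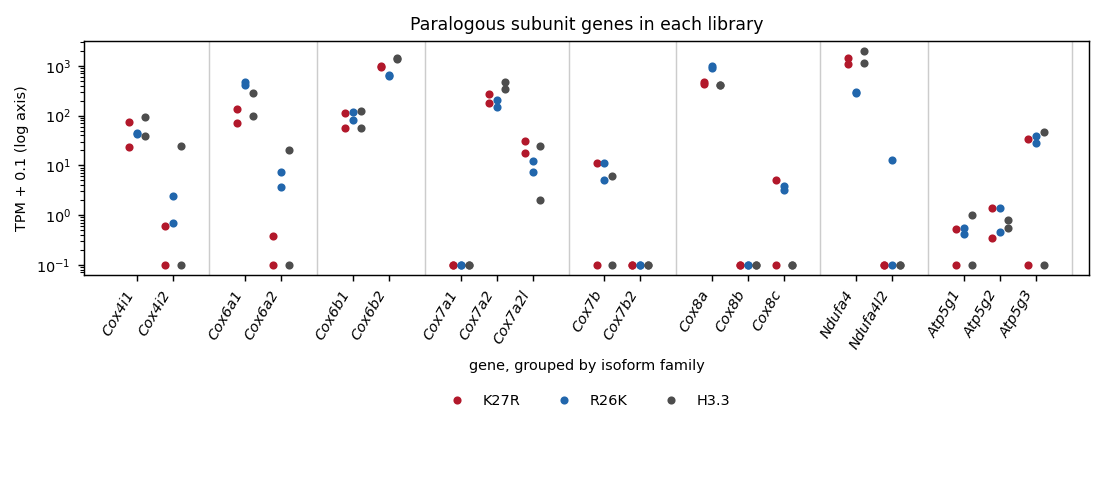
Levels of paralogous subunit genes in each library as TPM + 0.1 on a log axis, grouped by family, with K27R left, R26K in the middle and H3.3 right for each gene; points at 0.1 have no count. Cox6b2 lay above Cox6b1 in all 6 libraries, and Cox7a1, Cox7b2 and Cox8b lay at 0.1 throughout.

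Some members share sequence with transcripts of other genes, which lie elsewhere in the genome or overlap the member at the same place. Of all transcript positions at which a 50-base read of Atp5g2 could start, 87.4% hold a stretch found in another gene too, and for Atp5l, Cox7c and Atp5h the shares were 84.9%, 53% and 50.5%. For 45 members the share was 0%. Of the 3 genes of the ATP synthase c subunit, Atp5g2, with a share of 87.4%, had at most 18 counts, and Atp5g1, with 11.6%, at most 39. Atp5g3, with 0%, had 129 and 0 counts in K27R eggs, 369 and 427 in R26K eggs and 0 and 190 in H3.3 eggs. Its mean of 24.3 TPM lay near the median of all members, 20.7 TPM. The part of shared sequence in these levels was not tested. Cox7c, a complex IV subunit on chromosome 13, had 1 and 0 counts in K27R eggs, 9 and 7 in R26K eggs and 4 and 3 in H3.3 eggs. The first 60 coding bases of Cox7c are shown beside those of 3 pseudogenes on chromosomes 17, 11 and 10 (mm10, GENCODE M21), 5′ to 3′, because they show how far a short read can be placed. Capitals mark the start codon in Cox7c and the mismatches to it in the copies.
Cox7c: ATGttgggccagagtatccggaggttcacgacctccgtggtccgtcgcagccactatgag
Gm10012: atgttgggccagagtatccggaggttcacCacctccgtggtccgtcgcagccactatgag
Gm12338: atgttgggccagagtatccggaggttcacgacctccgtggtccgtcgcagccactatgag
Gm20091: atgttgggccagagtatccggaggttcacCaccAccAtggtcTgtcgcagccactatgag
Gm12338 is identical to Cox7c over this stretch, Gm10012 differs at 1 base and Gm20091 at 4. The treatment of reads that fit several places is not given in the sources used here, so the levels of these members are uncertain. Among members named below, the share was 24.8% for Uqcrc2, 32.1% for Cox5a, 34.1% for Ndufb6, 38.7% for Atp5f1, 28.5% for Cycs, 23.4% for Ndufb9, 12.3% for Cox6a1 and 10.9% for Uqcr11. For Uqcrc2, Ndufb6 and Ndufb9 the share came wholly from Pdzd9, Smim27 and Gm49356, and for Cox5a mostly from Gm26631. Exons of these genes overlap the member at the same place, so such a share does not mean several places in the genome. Exons of 27 members overlap those of another gene, Uqcrc2, Cox5a, Ndufb6, Atp5f1, Ndufb9 and Ndufs1 included, and the library kit does not mark the strand. Ndufa4, Cox8a, Sdha, Ndufaf2 and Ndufaf4 had neither a shared stretch nor an overlap.

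Whether a member was counted at all depended on the library. A count was found for 81 and 62 of the 94 members in K27R eggs, for 88 and 87 in R26K eggs, and for 58 and 74 in H3.3 eggs. Thinning every library to 10803477 counts left these numbers as they were. Ndufaf1, Cox7b2, Cox7a1 and Cox8b had no count in any library. Of the 7 core genes of complex I, 7 and 3 were counted in K27R eggs, 7 and 7 in R26K eggs, and 3 and 2 in H3.3 eggs.

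The gaps fell largely in the same libraries. In K27R replicate 2, 21 members had no count that were counted in replicate 1, and 2 showed the opposite. In H3.3 replicate 1, 19 members had no count that were counted in replicate 2, and 3 showed the opposite. The ATP synthase genes Atp5g1, Atp5g3, Atp5j, Atp5j2 and Atp5o, the complex I genes Ndufv3 and Ndufa2, the complex IV genes Cox6a2 and Cox7b, the assembly factor Ndufaf3 and Atp5sl had no count in either of these 2 libraries and a count in all other 4. These are 11 of the 82 tested members (13.4%), against 503 of all 10667 tested genes (4.72%), and the genes were named after their values were seen. The same 2 libraries held the fewest cumulus and granulosa markers, 5 and 6 of 22. Lhcgr had no count in any library. The summed level of the list was 2008 and 1418 CPM in K27R eggs, 2106 and 2054 CPM in R26K eggs, and 1022 and 1881 CPM in H3.3 eggs, of which Serpine2 alone gave 941 to 1914 CPM. The part of these cells in the gaps was not tested.

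Of tested members, 4.88% and 26.8% had no count in K27R eggs, 1.22% and 0% in R26K eggs, and 31.7% and 13.4% in H3.3 eggs. Over all tested genes these shares were 9.78% and 33.8% in K27R eggs, 3.11% and 3.05% in R26K eggs, and 32.7% and 34.6% in H3.3 eggs. The members of H3.3 replicate 2 thus had fewer gaps than its genes at large. Gaps also occurred at moderate levels: of all genes whose mean over the other libraries was 10 to 20 CPM, 33.9% had no count in K27R replicate 2, 32.2% in H3.3 replicate 1 and 35.6% in H3.3 replicate 2, against 1.45% to 5.49% in the remaining 3 libraries. The spread between replicates followed. On the log2(CPM + 1) scale, 15 of 82 members differed more than 4-fold between the K27R libraries, 1 between the R26K libraries and 31 between the H3.3 libraries. These are 18.3%, 1.22% and 37.8% of the members for K27R, R26K and H3.3, against 30.1%, 4.72% and 30.1% of all tested genes. As a description, Pearson's r across the 82 members was 0.845, 0.954 and 0.663 between the libraries of K27R, R26K and H3.3, and members share library and depth within each pair.

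**Figure D4:**
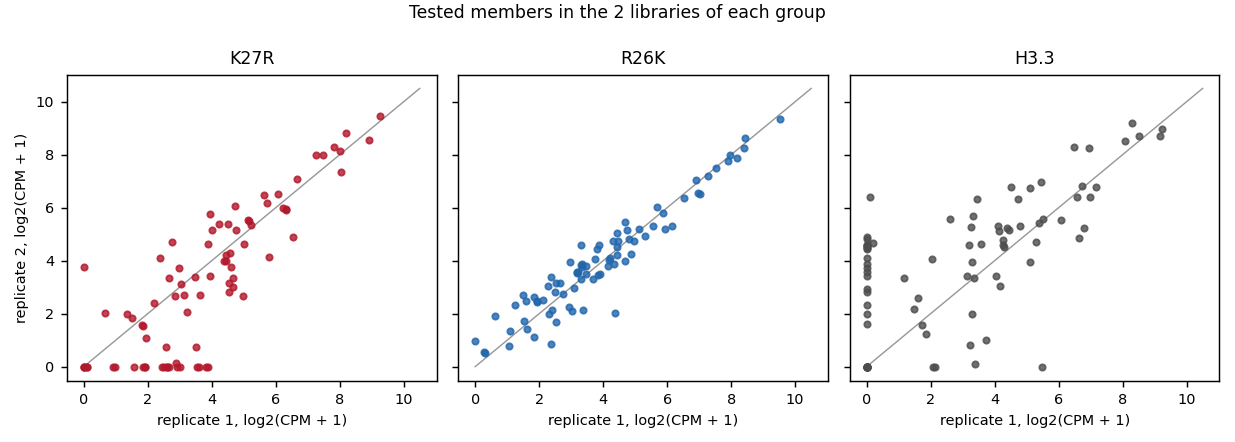
The 82 tested members in the 2 libraries of K27R (left), R26K (middle) and H3.3 (right), each point a gene, as log2(CPM + 1) of replicate 1 (x) and replicate 2 (y); the line marks equal values. Points on an axis have no count in 1 library, which occurred for 20 members in K27R, 1 in R26K and 21 in H3.3.

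In R26K eggs against H3.3 eggs, the member with the smallest p was Ndufa4, with a lower level that did not pass the threshold. Cox6b2 and the complex I assembly factors Ndufaf4 and Ndufaf2 also had lower values in both R26K libraries than in both H3.3 libraries, and Cox8a, Atp5b, Sdha and Cox5a had higher ones. None of the 82 tested members passed an adjusted p of 0.05 in edgeR's quasi-likelihood test, where 0.403% of all 10667 tested genes passed as higher and 0.216% as lower. Without adjustment, 10 members had p under 0.05 as higher and 4 as lower, and the same held for 17.6% and 4.14% of all tested genes. DESeq2 called 5 members higher and 5 lower, against 13.8% and 3.1% of all genes.

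Ndufa4, on chromosome 6 at 11900292 to 11907497 (mm10), had 295 and 447 CPM in K27R eggs, 90.8 and 80.6 CPM in R26K eggs, and 314 and 583 CPM in H3.3 eggs. Both R26K libraries lay far below all the others, and the K27R and H3.3 libraries overlapped. The log2 fold change in R26K against H3.3 was -2.39 ± 0.42 (SE, 2 libraries per group, edgeR adjusted p = 0.0771), a level of 0.191 times that of H3.3. Over the alternative settings its adjusted p ranged between 0.00375 with DESeq2, which passes the threshold, and 0.160 in edgeR without K27R replicate 2. Other genes of cytochrome c oxidase lay on either side of the H3.3 level. Cox6b2 had 185 and 178 CPM in R26K eggs and 367 and 417 CPM in H3.3 eggs (log2 fold change -1.11 ± 0.27, edgeR adjusted p = 0.149). Cox8a had 249 and 253 CPM in R26K eggs and 104 and 112 CPM in H3.3 eggs, and the replicates of each group lay close together (log2 fold change 1.22 ± 0.35, edgeR adjusted p = 0.198). Cox5a, a subunit on the matrix side, had 130 and 90.4 CPM in R26K eggs and 18 and 26.7 CPM in H3.3 eggs (log2 fold change 2.3 ± 0.88, edgeR adjusted p = 0.213).

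Atp5b had 735 and 652 CPM in R26K eggs and 123 and 306 CPM in H3.3 eggs, a log2 fold change of 1.69 ± 0.49 (edgeR adjusted p = 0.206). It made up 70.7% and 71.9% of the complex V counts in R26K eggs, and complex V as a whole held 0.0968% and 0.0888% of all counts there, against 0.0311% and 0.0636% in H3.3 eggs. Sdha had 290 and 232 CPM in R26K eggs and 125 and 84.5 CPM in H3.3 eggs (log2 fold change 1.32 ± 0.41, edgeR adjusted p = 0.213). For these genes too the groups did not overlap. Ndufaf4 had 237 and 218 CPM in R26K eggs and 575 and 417 CPM in H3.3 eggs (log2 fold change -1.12 ± 0.29, edgeR adjusted p = 0.165). Ndufaf2 had 153 and 146 CPM in R26K eggs and 271 and 361 CPM in H3.3 eggs (log2 fold change -1.08 ± 0.34, edgeR adjusted p = 0.213). The assembly genes together held 0.0404% and 0.0401% of the counts in R26K eggs, against 0.0888% and 0.0924% in H3.3 eggs. Cox6a1 and Uqcrc2, at log2 fold changes of 1.24 ± 0.79 and -0.57 ± 0.25, had edgeR adjusted p of 0.388 and 0.243.

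A second set of 17 members was without counts in both H3.3 libraries. Of these, 9 were counted in both R26K libraries, and Ndufs1, Ndufs8, Ndufb9 and Ndufa7 in both K27R libraries as well. All of these 4 belong to complex I, as do 35 of the 82 tested members, and Ndufs1 and Ndufs8 carry iron-sulphur clusters of its core. The 4 are named for this pattern, after their values were seen. The share of all tested genes with the same pattern is not given here. Ndufb9 had 20.8 and 14.8 CPM in K27R eggs and 11.9 and 8.89 CPM in R26K eggs. Set against a floor of 3 counts per H3.3 library, it was at least 73.6-fold higher in K27R eggs and at least 42.9-fold higher in R26K eggs. The corresponding ratios to the floor in R26K eggs were 10.2 for Ndufs1, 25.9 for Ndufs8 and 13.6 for Ndufa7, and in K27R eggs 34.7, 9.29 and 29.9. Of the tested members, 9.76% had no count in both H3.3 libraries, against 20.7% of all tested genes.

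By DESeq2, Uqcr11, Ndufb6, Ndufa4, Cycs and Cox6b2 were lower in R26K eggs. Ndufb6 had 33.7 and 35.3 CPM in R26K eggs and 94.4 and 83.3 CPM in H3.3 eggs, without overlap. The small complex III subunit gene Uqcr11 had 4.26 and 3.36 CPM in R26K eggs and 16.5 and 34.2 CPM in H3.3 eggs. Cycs had 8 and 15 counts in R26K eggs and 27 and 59 counts in H3.3 eggs. Over the 82 members the median log2 fold change was -0.30, with 36 positive and 46 negative, against a median of 0.66 over all tested genes. Of the 82 members, 20 lay wholly above and 19 wholly below the H3.3 libraries in R26K eggs, as did 44.9% and 15.2% of all tested genes. Among the 44 members with at least 10 CPM on average the median was -0.56, against 0.08 over all genes at that level. The members are short, with a median transcript of 919.5 bases against 2959 for all tested genes, and after a correction for length and GC content the medians were -0.52 for members and 0.14 for all genes, and Ndufa4 stood at -1.50 (edgeR adjusted p = 0.124). The same correction brought Atp5b to 0.82, Sdha to 0.73, Cox6a1 to 0.57, Cox8a to 0.54 and Ndufaf4 to -0.53. Without H3.3 replicate 2, Atp5b stood at 2.50 and Cox6a1 at 2.27, and without H3.3 replicate 1 Cox6a1 stood at 0.64. Leaving out H3.3 replicate 2 turned the members' median to 1.11 and that of all genes to 2.12.

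**Figure D5:**
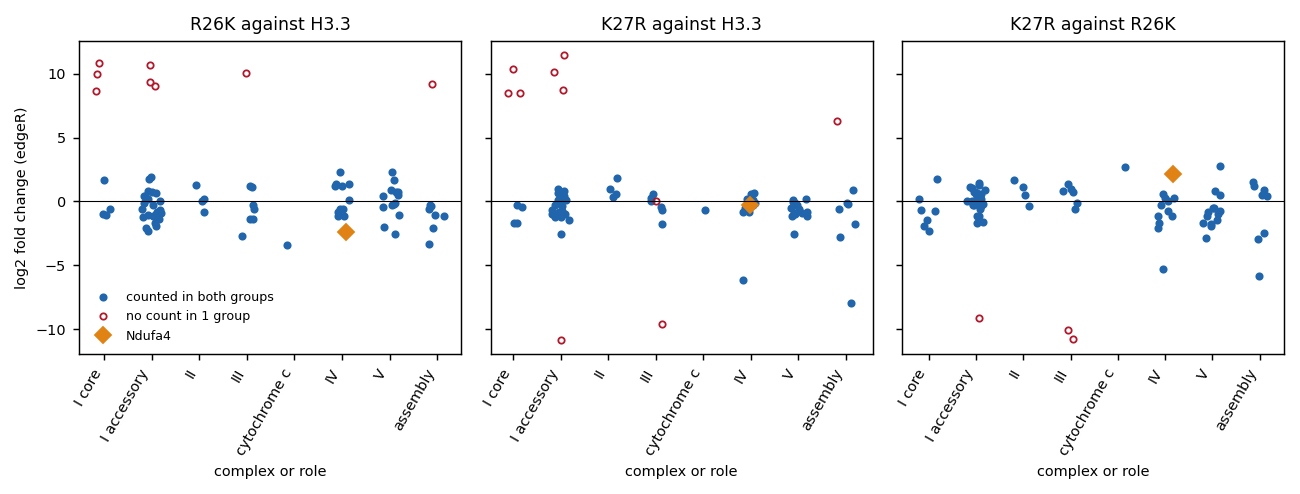
edgeR log2 fold change of each tested member in R26K against H3.3 (left), K27R against H3.3 (middle) and K27R against R26K (right), by complex or role. Open red points have no count in 1 group, so that their fitted position depends on the prior count and is no bound; the orange diamond is Ndufa4, at -2.39, -0.27 and 2.11.

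In K27R eggs against H3.3 eggs, no member passed the threshold in edgeR. Among members with a mean of at least 10 CPM, the complex II genes Sdha, Sdhd and Sdhc, the complex III gene Uqcrc2 and the complex I gene Ndufs4 had the smallest p on the higher side. Cox6b2, Ndufb6, Cox7a2, Ndufaf2 and Cox6a1 of these members had the smallest on the lower side. Of all tested genes, 0% passed in either direction. At an unadjusted p under 0.05, 4 members were higher and 0 lower, against 6.05% and 1.07% of all tested genes, and DESeq2 called 4 higher and 1 lower, against 6.26% and 1.95%.

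Sdha had 151 and 253 CPM in K27R eggs and 125 and 84.5 CPM in H3.3 eggs. The groups did not overlap, and the log2 fold change was 0.95 ± 0.41 (edgeR adjusted p = 0.522). Sdhd had 25.2 and 66.7 CPM in K27R eggs and 15.6 and 9.69 CPM in H3.3 eggs, with a log2 fold change of 1.86 ± 1.21 (edgeR adjusted p = 0.588). Sdhc had 73.5 and 62.5 CPM in K27R eggs and 44.2 and 46.6 CPM in H3.3 eggs (log2 fold change 0.58 ± 0.67, edgeR adjusted p = 0.860). Complex II as a whole held 0.0289% and 0.0379% of the counts in K27R eggs and 0.0189% and 0.0167% in H3.3 eggs, without overlap. Sdhb, its iron-sulphur subunit, had 22.5 and 6.08 CPM in K27R eggs and 0 and 22 CPM in H3.3 eggs, which overlap (log2 fold change 0.38 ± 2.70). The log2 fold change was positive for these 4 genes, with a median of 0.77, and for 53.7% of all tested genes.

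Cox6b2 had 254 and 282 CPM in K27R eggs and 367 and 417 CPM in H3.3 eggs (log2 fold change -0.55 ± 0.27, edgeR adjusted p = 0.522). Ndufb6, a complex I accessory subunit, had 34.5 and 43.9 CPM in K27R eggs and 94.4 and 83.3 CPM in H3.3 eggs (log2 fold change -1.18 ± 0.65, edgeR adjusted p = 0.532). Both genes were lower in each K27R library than in each H3.3 library. Cox7a2, Ndufaf2 and Cox6a1 had log2 fold changes of -0.84 ± 0.50, -0.56 ± 0.34 and -0.86 ± 0.78, and Uqcrc2 and Ndufs4 had 0.25 ± 0.25 and 0.80 ± 1.09, with edgeR adjusted p of 0.541 to 0.907. Without H3.3 replicate 2, Cox6a1 turned to 0.17, without K27R replicate 1, Ndufs4 turned to -0.29, and without K27R replicate 2, Sdhd stood at 0.99. Ndufb7, which DESeq2 called lower, had no count in K27R eggs, 4.75 and 2.21 CPM in R26K eggs and 0 and 22.9 CPM in H3.3 eggs. The median over the members was -0.28, with 31 positive and 50 negative, against 0.12 over all tested genes. Without H3.3 replicate 2 the members' median turned to 0.63, against 0.31 over all genes. Of the 82 members, 8 lay wholly above and 9 wholly below the H3.3 libraries in K27R eggs, as did 15.9% and 9.62% of all tested genes.

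Between the mutants, K27R eggs against R26K eggs, Ndufa4 again had the smallest p among the members and was higher in K27R. Among members with a mean of at least 10 CPM, Uqcrc2, Ndufaf4, Cox6b2 and Ndufc2 followed on the same side, and Atp5b, Cox8a, Cox6a1, Cox5a and Atp5f1 had the smallest p on the lower side. No member passed in edgeR, where 0.169% of all tested genes passed as higher and 0.206% as lower. At an unadjusted p under 0.05, 3 members were higher and 4 lower, against 3.43% and 9.82% of all tested genes. DESeq2 called 1 member higher (Ndufa4) and 1 lower (Ndufb7), against 1.62% and 5.19% of all genes. This comparison shares its R26K libraries with that of R26K against H3.3, so the values of both stand side by side and no overlap was drawn.

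The log2 fold change of Ndufa4 in K27R against R26K was 2.11 ± 0.41 (edgeR adjusted p = 0.131), a level 4.33 times that of R26K. Over the alternative settings its adjusted p reached 0.618 in edgeR without K27R replicate 2, and DESeq2 gave 0.0298. Uqcrc2 had 605 and 705 CPM in K27R eggs and 346 and 395 CPM in R26K eggs, with a log2 fold change of 0.82 ± 0.25 (edgeR adjusted p = 0.337). It carried complex III, which held 0.0737% and 0.0738% of the counts in K27R eggs and 0.0392% and 0.0479% in R26K eggs. Ndufaf4 had 477 and 374 CPM in K27R eggs and 237 and 218 CPM in R26K eggs (log2 fold change 0.90 ± 0.29, edgeR adjusted p = 0.346). Cox6b2 and Ndufc2, a complex I accessory subunit, had log2 fold changes of 0.56 ± 0.27 and 1.48 ± 0.75, with edgeR adjusted p of 0.462 and 0.505.

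Atp5b had 261 and 160 CPM in K27R eggs and 735 and 652 CPM in R26K eggs (log2 fold change -1.72 ± 0.50, edgeR adjusted p = 0.302). Cox8a had 101 and 133 CPM in K27R eggs and 249 and 253 CPM in R26K eggs (log2 fold change -1.10 ± 0.34, edgeR adjusted p = 0.346). Both R26K libraries lay above both K27R libraries for these genes. Cox6a1 had 17.9 and 40.3 CPM in K27R eggs and 119 and 130 CPM in R26K eggs, with a log2 fold change of -2.10 ± 0.81 (edgeR adjusted p = 0.346). Cox5a and the ATP synthase stalk gene Atp5f1 had -1.72 ± 0.86 and -2.83 ± 2.47, with edgeR adjusted p of 0.501 and 0.850. After the correction for length and GC content, Ndufa4 stood at 1.44, Atp5b at -1.06, Cox6a1 at -1.21 and Cox8a at -0.25. Without K27R replicate 1, Cox5a stood at -1.06 and Atp5f1 at -7.83, and without K27R replicate 2 Cox5a stood at -2.95, Atp5f1 at -1.86 and Cox6a1 at -2.80. The median over the members was -0.15, with 38 positive and 44 negative, against -0.32 over all tested genes, and 24 lay wholly above and 22 wholly below the R26K libraries, as did 17.5% and 36.3% of all tested genes. Upper-quartile scaling turned the members' median to 0.07, against -0.10 over all genes. Without K27R replicate 2 the members' median was 0.24, against -0.34 over all genes.

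Genes around the pathway were read from 3 further lists: other assembly factors of the respiratory complexes (32 tested), regulators of mitochondrial biogenesis (18 tested) and the tricarboxylic acid cycle (18 tested). No gene of these lists passed in edgeR in any of the 3 comparisons. At an unadjusted p under 0.05 in R26K against H3.3, 11 assembly genes were higher and 0 lower, 2 biogenesis genes were higher and 1 lower, and 1 cycle gene was higher and 0 lower, against 17.6% and 4.14% of all tested genes. In K27R against H3.3 the higher genes numbered 2, 1 and 0 in the assembly, biogenesis and cycle lists, with 0 lower, against 6.05% and 1.07% of all tested genes. In K27R against R26K the lower genes numbered 4, 1 and 0, with 0 higher, against 9.82% lower and 3.43% higher of all tested genes. Cox10, which makes the haem of cytochrome c oxidase, had 424 and 331 CPM in K27R eggs, 853 and 744 CPM in R26K eggs and 413 and 397 CPM in H3.3 eggs (log2 fold change 0.98 ± 0.25 in R26K against H3.3, edgeR adjusted p = 0.164). Gabpb1, a subunit of the GABP transcription factor, had 52 and 85.3 CPM in K27R eggs, 79.5 and 83.1 CPM in R26K eggs and 12 and 20.9 CPM in H3.3 eggs. Both groups of mutant libraries lay above the H3.3 libraries for Gabpb1, with log2 fold changes of 2.06 ± 0.72 in K27R and 2.31 ± 0.72 in R26K (edgeR adjusted p = 0.522 and 0.213). Atpaf2, an assembly factor of ATP synthase, had 7.33 and 22.1 CPM in K27R eggs, 16.1 and 19 CPM in R26K eggs and no count in H3.3 eggs. Pcx, the pyruvate carboxylase gene, had 0.0814 and 0 CPM in K27R eggs, 2.63 and 12.6 CPM in R26K eggs and no count in H3.3 eggs. Peo1, the gene of the mitochondrial DNA helicase, was counted in the R26K libraries alone, at 1.98 and 2.78 CPM. The median log2 fold change in R26K against H3.3 was 4.45 for the assembly list. With genes that have no count in 1 group set against the floor of 3 counts, the assembly median was 2.63. For the biogenesis list the median was 0.13 and for the cycle list -0.15, against 0.66 over all tested genes. Over the 14 assembly genes that averaged 10 CPM or more it was 0.97, against 0.08 over all genes at that level.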

How the data were processed

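Polyadenylated RNA of MII eggs was measured in 6 libraries, 2 per group, and groups and replicate numbers were read from the sample titles. The authors deposited unnormalized counts of reads, whole numbers for each gene symbol; the submitters' processing notes list featureCounts, cutadapt 1.9.1, SAMtools 1.3 and TopHat2 2.1.0, and the build mm10. Per the labels' protocols, cDNA came from the SMARTer Ultra Low RNA kit and libraries from the Nextera kit, read as single 50-base ends. The annotation, the strand setting and the handling of reads with several places are not given in the sources used here. Mitochondrially encoded genes were not analysed here.

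From the counts, edgeR 4.0.16 (R 4.3.3) was fitted to all genes kept by filterByExpr (10667, of which 82 are members) in all 6 libraries, with TMM scaling, 3 group means and 3 residual degrees of freedom. The two-sided p-values were adjusted over every tested gene (Benjamini-Hochberg) and called under 0.05, and an SE is the log2 fold change over the root of its F statistic. The 12 members that failed the filter are described by counts only. CPM use TMM-scaled totals, and TPM use GENCODE M21 transcript lengths (mm10), which matched all 94 members. A floor of 3 counts equals 0.0757 to 0.278 CPM before scaling. DESeq2 1.42.0 was an alternative. The fit was also run on simulated counts with a dispersion of 0.05, against a common dispersion of 1.63 in these data. That run cannot show how the fit performs at the spread of these libraries.

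Members and gene lists were chosen with earlier results of these data known. Named are the 5 members with the smallest p in each direction and comparison at a mean of at least 10 CPM, the 10 highest by TPM, the isoform families and the 3 highest of each complex, and for other lists the gene with the smallest p. A few of the values this rule or DESeq2 picks out are not reported here.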

Additional observations from a re-analysis of the deposited data

How the results depend on the processing

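No member was called by edgeR, and this held with RLE or upper-quartile scaling, with only the compared groups in the fit and after correcting for length and GC content. Few genes of any kind passed under these settings. In R26K against H3.3, 30 of 10667 genes were higher and 21 lower with RLE scaling, and 31 and 27 with upper-quartile scaling. With only the compared groups, 0 of 10371 passed either way. After the correction, 4 of 10667 were higher and 13 lower. Ndufa4 was the exception elsewhere: members lower in R26K than in H3.3 came to 1 without a filter on low counts, 1 at a mean of at least 10 CPM and 1 with the replicate number as a block, where its log2 fold change was -2.31. Over all genes, 63 of 14242, 42 of 6135 and 65 of 10667 were lower under these settings. Members higher in K27R than in R26K came to 1 without a filter and 1 with the block, against 56 of 14242 and 61 of 10667 genes. With the block the members' median in R26K against H3.3 was 0.16, against 1.32 for all genes. Same-numbered libraries did not deviate together (correlations of deviations 0.021 for K27R and R26K, 0.014 for K27R and H3.3, -0.009 for R26K and H3.3). This check showed no pairing by replicate number and, with many gaps in some libraries, cannot exclude one. DESeq2 called 5 members higher and 5 lower in R26K than in H3.3, 4 higher and 1 lower in K27R than in H3.3, and 1 higher and 1 lower in K27R than in R26K. Leaving out a library left 1 library in its group, so calls from these fits are not listed here. Over the same leave-outs the members' median ranged from -0.47 to 1.11 in R26K against H3.3, from -0.61 to 0.63 in K27R against H3.3 and from -0.61 to 0.24 in K27R against R26K, the upper ends without H3.3 replicate 2, H3.3 replicate 2 and K27R replicate 2. In K27R against H3.3, Ndufs4 ranged from -0.29 to 1.41 and Cox6a1 from -1.56 to 0.17. Of 419 values for 30 pairs of member and comparison, 405 kept direction and side of the threshold, 2 reversed and the rest passed it newly. The cause was not tested. None of the 30 pairs passed in the main fit, so keeping the side of the threshold says little. A change in size alone counted as kept. Scaling moved the median of all genes in R26K against H3.3 to 0.57 (RLE) and 0.47 (upper quartile), where the members' was -0.41 and -0.51; it was -0.52 after the length and GC correction and -0.57 at a mean of at least 10 CPM. All 10 genes highest by TPM stayed so with the shortest equally supported transcript, a setting chosen after seeing the data, and 8 of them by CPM. Having 2 libraries per group and gaps at moderate levels limits what could be called.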

Other observations

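Some members differed widely between libraries of a group. Ndufa4l2, a paralogue of Ndufa4, had 225 counts in R26K replicate 1 and no count in any other library. Cox4i2 had 0 and 2 counts in K27R eggs, 8 and 26 in R26K eggs, and 0 and 103 in H3.3 eggs, so that 1 H3.3 library set its level. The ratio of its counts in K27R to those in H3.3, scaled to the totals, was 0.021 with an interval of 0.00251 to 0.0779 that covers counting error only. Ndufaf7, a methyltransferase needed for complex I assembly, had 36.4 and 39.4 CPM in K27R eggs, 29.9 and 25.5 CPM in R26K eggs, and 0.0766 and 83 CPM in H3.3 eggs. Ndufv1, the flavin-binding core subunit of complex I, had 13.8 and 0 CPM in K27R eggs, 9.1 and 13.6 CPM in R26K eggs, and 43.8 and 0 CPM in H3.3 eggs. Both genes were close to each other in the R26K libraries and far apart in the H3.3 libraries. These genes were chosen after their values were seen.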
